A study of Homo sapiens with 9 samples.

Results

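Fatty acid oxidation was described through 9 genes named for this purpose, chosen for their roles in carnitine transfer, fatty acid binding, coenzyme A supply, beta oxidation and lipid storage: CPT1A, CPT2, FABP1, VNN1, ACAA2, ACADM, HADHA, EHHADH and PLIN2. The choice was made with earlier results of these data known. All 9 were measured, among 9784 genes in all, each by 1 probe set that was assigned to no other gene. Huh7 is a human hepatocellular carcinoma line, and sorafenib is a kinase inhibitor given for that cancer. Untreated parental cells (Huh7-S), a resistant pool derived from them (Huh7-R) and the resistant clone Huh7-R-A7, grown from a colony of that pool, were each hybridised on 3 Affymetrix Human Transcriptome arrays (version 2.0). Resistance had been raised by weekly pulses of 10 µM sorafenib, each lasting 4 hours, over 6 weeks, followed by continuous drug that was raised to 6 µM. The drug was taken away 5 to 7 days before experiments (a week before the array harvest by another note), so no group was under sorafenib at harvest. Huh7-R-A7 stands for a lone clone, and Huh7-R for a mixture of cells. The titles of all 3 clone arrays name A7, while the descriptions of replicates 2 and 3 name other clone numbers, and the titles were followed.

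In the liver, long-chain fatty acids are bound in the cytosol by FABP1, activated to acyl-CoA, and either stored in lipid droplets or carried into mitochondria as carnitine esters. CPT1A on the outer mitochondrial membrane makes the carnitine ester and is the controlled step of the pathway, CPT2 on the inner membrane turns it back into acyl-CoA, and acyl-CoA dehydrogenases, the trifunctional protein and thiolases then shorten the chain. Many of these genes, FABP1 and CPT1A among them, are known targets of the nuclear receptor PPARA, which binds as a pair with RXR to a direct repeat of hexamers separated by a single base.

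The sequences upstream of 3 of the genes are shown because FABP1 and CPT1A carried large differences in opposite directions and because FABP1 and ACAA2 were the members in which a PPAR-type direct repeat was found. They are the RefSeq bases before the transcription start on GRCh38.p14, read 5′ to 3′ on the strand of the gene, which for all 3 is the minus strand, and capitals mark the repeat: FABP1 at chr2:88128063-88128312, ACAA2 at chr18:49813534-49813783 and CPT1A at chr11:68844278-68844527.
FABP1: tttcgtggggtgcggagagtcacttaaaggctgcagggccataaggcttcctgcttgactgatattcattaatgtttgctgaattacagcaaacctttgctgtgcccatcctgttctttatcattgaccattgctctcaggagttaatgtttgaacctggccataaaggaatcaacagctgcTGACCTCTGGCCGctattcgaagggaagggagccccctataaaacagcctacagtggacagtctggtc
ACAA2: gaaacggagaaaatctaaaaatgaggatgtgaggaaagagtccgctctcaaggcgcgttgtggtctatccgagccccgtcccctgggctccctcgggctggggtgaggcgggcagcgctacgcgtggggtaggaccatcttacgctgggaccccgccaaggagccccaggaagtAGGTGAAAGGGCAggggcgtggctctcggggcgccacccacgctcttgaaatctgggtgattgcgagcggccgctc
CPT1A: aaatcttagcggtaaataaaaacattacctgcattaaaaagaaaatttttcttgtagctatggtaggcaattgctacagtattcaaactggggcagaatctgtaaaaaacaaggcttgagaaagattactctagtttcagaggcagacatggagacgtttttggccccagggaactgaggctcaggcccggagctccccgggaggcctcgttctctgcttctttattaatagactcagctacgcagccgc
The search used the motif AGGTCANAGGTCA on both strands, with at most 2 mismatches over its 12 defined positions, from 250 bases before to 50 after the start, and 7 of the 9 members matched the promoter table (all but VNN1 and EHHADH). In FABP1 the repeat read CGGCCAGAGGTCA on the strand opposite to the gene, from position -68 to -56 counted from the start, and in ACAA2 it read AGGTGAAAGGGCA on the strand of the gene, from -76 to -64. No match was found in the windows of CPT1A, CPT2, ACADM, HADHA and PLIN2. The window of each member lay at the outer end of the annotated gene, and any other start of the gene was not searched. Of 27305 RefSeq promoters of this length, 816, or 3.0%, held such a match. FABP1 was also the member with a TATAAA box, at -31 (7.7% of all promoters held one), and had 7 CpG pairs in its window against 13 in CPT1A, 22 to 36 in the other 5 matched members and a median of 14 over all promoters.

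All values below are the deposited log2 signals, on which a step of 1 is a doubling, and a difference is the first group minus the second (in pairs of values without a group name, the clone comes first and the pool next, each against Huh7-S). Genes were compared with limma over all 9784 genes on all 9 arrays, and a gene passed at a Benjamini-Hochberg adjusted p below 0.05. The study treated log2 6 as its noise limit, so a fold is given as a lower bound ("at least") wherever a group mean was below 6, with values under 6 set to 6. Array medians lay between 8.22 and 8.38. Huh7-S replicate 1 stood apart, since its differences from the other parental arrays had an SD of 0.484, against 0.163 to 0.276 for each of the other 8 arrays and their own groups. Keratins KRT8 and KRT18 were at 14.26 to 16.2 on every array. Albumin (ALB) read 14.66 to 17.28 and was lower in both resistant lines. Its log2 difference was -1.35 in the clone (limma adjusted p = 0.013) and -1.69 in the pool (limma adjusted p = 0.0047). Of 7 measured hepatocyte markers, 4 fell in the clone and 5 in the pool, where 24.6% and 26.2% of all genes fell. Among them, APOA1 and SERPINA1 had means below 6 in both resistant lines. AFP, a marker of hepatoma cells, had a log2 difference of -3.14 in the clone (SE 0.31, limma adjusted p = 0.00016). In the pool it was -1.54 (SE 0.31, limma adjusted p = 0.0053). The part of these markers in the results below was not tested. Of 18 markers of fibroblasts, leukocytes, endothelium and adipocytes, the table held LYZ alone, which read 11.67 on Huh7-S replicate 1 and 6.69 to 8.3 on the other arrays. In these bulk RNA data, fewer cells with a transcript and less of it per cell cannot be told apart.

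Compared with Huh7-S, the clone passed in 8 of the 9 genes, 4 higher and 4 lower, where 42.7% of all genes passed (18.0% higher and 24.6% lower). Without replicate 2 or 3 of the clone or replicate 2 of Huh7-S, 5 of the 9 passed in the clone. The pool passed in 7, with 2 higher and 5 lower, where 45.1% of all genes passed (19.0% higher and 26.2% lower). The median difference over the 9 genes was 0.05 in the clone and -0.38 in the pool, against -0.04 and -0.03 over all genes. Both comparisons use the same 3 parental arrays. The counts of the gene lists below are to be read beside the same shares of all genes. FABP1 and VNN1 could stay in the deposited table, which was filtered on low signals, only through the groups in which they were high. The same held for relatives named below, among them OXCT1, ACSM3, ACSL5, FABP3, RXRA, SLC27A2 and TXNIP. Their calls against the groups in which they were low carry that limit. The 9 genes and the lists below were also chosen with earlier results of these data known, so these counts support nothing by themselves. CPT1A and VNN1 rose in both resistant lines, and FABP1, PLIN2, EHHADH and CPT2 fell in both.

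**Figure D1:**
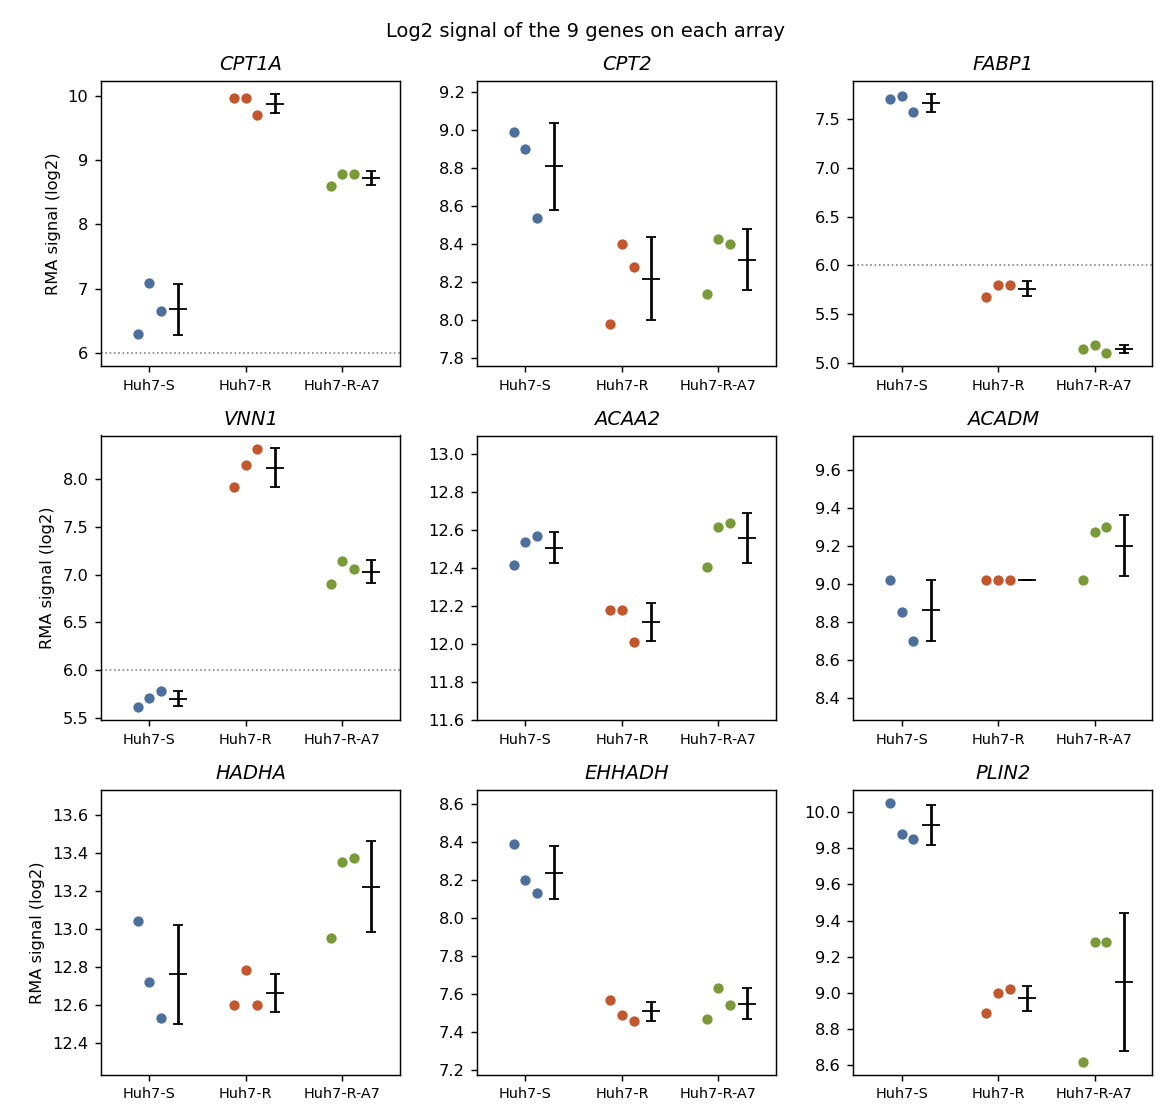
Log2 signal of the 9 genes on each array (points, replicates 1 to 3 from left to right within a group), with the group mean and SD (bars, n = 3), on a separate vertical scale per gene; the dotted line is the noise limit of 6. CPT1A and VNN1 are highest in Huh7-R with Huh7-R-A7 between, and FABP1 lies above 6 in Huh7-S alone.

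Of the measured transcripts of carnitine transfer, that of CPT1A, the controlled step, differed most from Huh7-S. CPT1A (chromosome 11, 68754620 to 68844277 on GRCh38.p14) read 6.3, 7.09 and 6.66 in Huh7-S, 9.96, 9.97 and 9.71 in Huh7-R, and 8.6, 8.78 and 8.78 in Huh7-R-A7. The 3 groups did not overlap, with the pool highest, the clone between and the parental cells lowest. The log2 difference was 3.20 in the pool (9.17-fold, SE 0.18, limma adjusted p = 1.2e-05) and 2.04 in the clone (4.1-fold, SE 0.18, limma adjusted p = 9.6e-05). The parental arrays had the widest spread (SD 0.4, n = 3), with replicate 1 lowest and replicate 2 highest, and leaving out any array kept the pool between 3.01 and 3.4 and the clone between 1.85 and 2.24.

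CPT2, the inner membrane partner that releases acyl-CoA from carnitine (chromosome 1, 53196824 to 53214197), moved the other way. It read 8.99, 8.9 and 8.54 in Huh7-S, 7.98, 8.4 and 8.28 in Huh7-R, and 8.14, 8.43 and 8.4 in Huh7-R-A7. Every resistant array was below every parental one, and the resistant lines overlapped each other. The log2 difference was -0.59 in the pool (SE 0.15, limma adjusted p = 0.015) and -0.49 in the clone (SE 0.15, limma adjusted p = 0.035). The clone's call was lost without any one of its own 3 arrays, Huh7-S replicate 1 or 2 or Huh7-R replicate 3 (limma adjusted p of 0.053 to 0.11), and the pool's without Huh7-S replicate 2 (limma adjusted p = 0.053). Of the rest of the carnitine system, 6 of 10 listed genes were measured, of which 3 fell in the clone and 2 in the pool, and no other passed. SLC25A20, the carrier that moves acylcarnitines across the inner membrane, had a log2 difference of -1.06 in the clone (SE 0.33, limma adjusted p = 0.035) and -0.83 in the pool (SE 0.33, limma adjusted p = 0.076). CRAT, which handles short acyl groups, fell, with log2 differences of -0.85 in the clone (SE 0.2, limma adjusted p = 0.0095) and -0.65 in the pool (SE 0.2, limma adjusted p = 0.029). TMLHE, the first enzyme of carnitine synthesis, fell, with log2 differences of -0.42 and -0.31 (SE 0.09 each, limma adjusted p = 0.0069 and 0.027). The SLC25A20 call in the clone held when the third replicate of Huh7-S or of the clone was left out. It was lost without any one of the other 7 arrays (limma adjusted p of 0.05 to 0.11) and under the replicate block, and its difference was -0.7 without Huh7-S replicate 1. The calls of CRAT and TMLHE in the pool were lost without any one of the Huh7-R arrays or Huh7-S replicate 1 or 2 (limma adjusted p of 0.058 to 0.083), and that of CRAT under the replicate block too. Without Huh7-S replicate 1, 1 carnitine gene rose and 2 fell in the clone. In that fit, 45.6% of all genes passed in the clone and 47.1% in the pool.

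FABP1, the main fatty acid binding protein of hepatocyte cytosol (chromosome 2, 88122982 to 88128062), moved opposite to CPT1A in both resistant lines. It read 7.71, 7.74 and 7.57 in Huh7-S, 5.67, 5.8 and 5.8 in Huh7-R, and 5.14, 5.18 and 5.1 in Huh7-R-A7. All 6 resistant arrays lay below the noise limit and all parental arrays above it, so FABP1 was at least 3.19-fold lower in either resistant line. The measured log2 differences were -1.92 in the pool (SE 0.07, limma adjusted p = 9.8e-07) and -2.54 in the clone (SE 0.07, limma adjusted p = 3.1e-07). With SDs of 0.04 to 0.09 within groups (n = 3), its replicates lay close together.

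Of 11 listed relatives and other lipid carriers, 4 were measured, and 3 of them rose and 1 fell in the clone, while 2 rose in the pool. FABP3, the heart-type binding protein, was below 6 in Huh7-S (mean 5.34) and reached means of 6.64 in Huh7-R and 6.07 in Huh7-R-A7, at log2 differences of 1.3 (at least 1.56-fold, SE 0.14, limma adjusted p = 0.00019) and 0.73 (at least 1.05-fold, SE 0.14, limma adjusted p = 0.0034). The clone's FABP3 call was lost once values under 6 were set to 6. FABP5, the epidermal type, rose by 0.35 in the clone (SE 0.09, limma adjusted p = 0.014) and had a difference of 0.04 in the pool (limma adjusted p = 0.72). ACBD3, which carries an acyl-CoA binding domain and sits on the Golgi, rose by 0.87 in the clone and 0.91 in the pool (SE 0.12 each, limma adjusted p = 0.00081 and 0.00067). DBI, the acyl-CoA binding protein, had a log2 difference of -0.28 in the clone (SE 0.08, limma adjusted p = 0.028) and 0.06 in the pool (limma adjusted p = 0.57), and its call in the clone was lost with each of the 3 other array scalings tried and without replicate 1 or 2 of Huh7-S or of the clone.

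VNN1, the pantetheinase that frees pantothenate for renewed coenzyme A synthesis (chromosome 6, 132680849 to 132714055), was below the noise limit in parental cells alone. It read 5.61, 5.71 and 5.78 in Huh7-S, 7.92, 8.15 and 8.31 in Huh7-R, and 6.9, 7.14 and 7.06 in Huh7-R-A7. The groups did not overlap and stood in the same order as for CPT1A. VNN1 was at least 4.36-fold higher in the pool, with a log2 difference of 2.42 (SE 0.11, limma adjusted p = 3.8e-06), and at least 2.04-fold higher in the clone, with 1.33 (SE 0.11, limma adjusted p = 5.4e-05). Its relative VNN2, a pantetheinase best known from neutrophils, went from a mean of 6.81 in Huh7-S to 9.73 in the pool and 9.22 in the clone, at log2 differences of 2.91 (7.54-fold, SE 0.4, limma adjusted p = 0.00073) and 2.41 (5.32-fold, SE 0.4, limma adjusted p = 0.0019).

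Of 14 listed genes of coenzyme A synthesis and breakdown, VNN2 included, 11 were measured, and in each resistant line 2 rose and 2 fell. NUDT19, a peroxisomal coenzyme A hydrolase in mouse, was the other that rose, by 2.24 in the pool (4.72-fold, SE 0.22, limma adjusted p = 0.00015) and 1.97 in the clone (3.91-fold, SE 0.22, limma adjusted p = 0.00028). PANK3, a pantothenate kinase at the first step of synthesis, fell, with log2 differences of -0.74 in the pool and -0.68 in the clone (SE 0.12 each, limma adjusted p = 0.0019 and 0.0029). COASY, which completes the synthesis, fell by 0.37 in the clone (SE 0.11, limma adjusted p = 0.025, lost without any one of the clone arrays or Huh7-S replicate 1 or 2) and had a difference of -0.3 in the pool (limma adjusted p = 0.051). The vitamin carrier SLC5A6 fell by 0.59 in the pool (SE 0.12, limma adjusted p = 0.0049) and had a difference of -0.17 in the clone (limma adjusted p = 0.29).

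**Figure D2:**
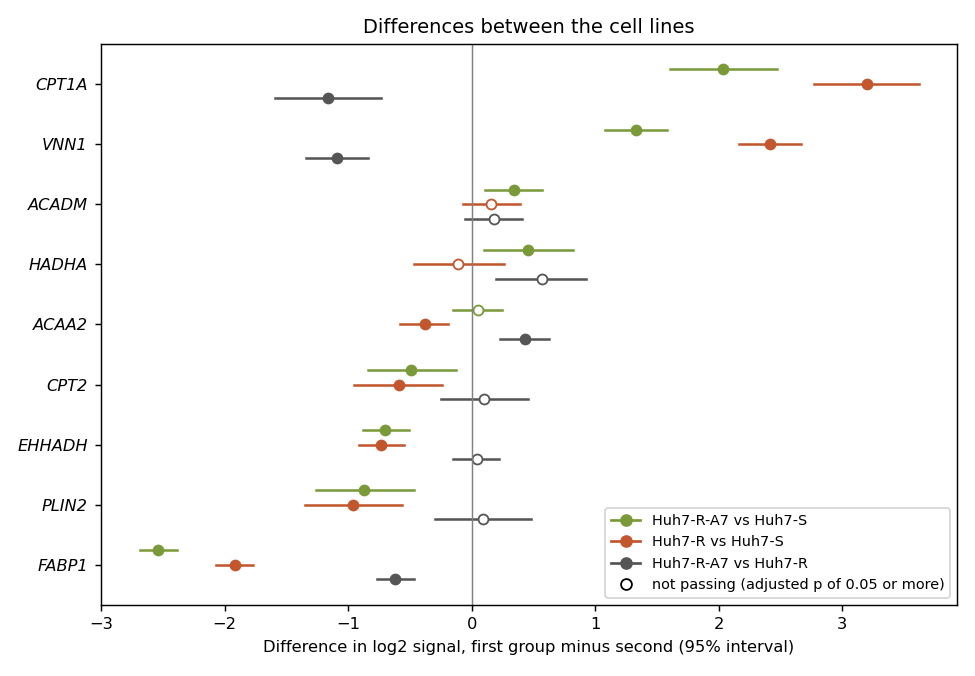
Difference in log2 signal (horizontal axis, first group minus second) with its 95% interval from limma for each of the 9 genes in the 3 comparisons; open points did not pass. CPT1A and VNN1 lie to the right against Huh7-S, at 2.04 and 1.33 in the clone and 3.20 and 2.42 in the pool, while FABP1 lies farthest to the left at -2.54 and -1.92.

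Of the members, ACADM, HADHA and ACAA2 act in the mitochondrial beta oxidation cycle. ACADM, the medium-chain acyl-CoA dehydrogenase (chromosome 1, 75724709 to 75763679), read 9.02, 8.85 and 8.7 in Huh7-S, 9.02 on every Huh7-R array, and 9.02, 9.27 and 9.3 in Huh7-R-A7. The same value of 9.02 thus stood on 5 of the 9 arrays, and 59.9% of all genes carried an exactly repeated value somewhere in the deposited table. The groups touched or overlapped. The log2 difference was 0.34 in the clone (SE 0.1, limma adjusted p = 0.026) and 0.16 in the pool (95% interval -0.07 to 0.39, limma adjusted p = 0.22). The clone's call was lost without Huh7-R-A7 replicate 2 or 3 or Huh7-S replicate 2 or 3 (limma adjusted p of 0.068 to 0.089).

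HADHA, the alpha subunit of the trifunctional protein, which carries out the last steps of the cycle on long chains (chromosome 2, 26190635 to 26244632), read 13.04, 12.72 and 12.53 in Huh7-S, 12.6, 12.78 and 12.6 in Huh7-R, and 12.95, 13.35 and 13.37 in Huh7-R-A7. The clone lay higher on replicates 2 and 3, while its replicate 1 fell within the parental range. Its log2 difference from Huh7-S was 0.46 (SE 0.16, limma adjusted p = 0.047), a call that held when replicate 1 of either group was left out (0.6 without the parental array and 0.59 without that of the clone) and was lost without any one of the other 7 arrays (limma adjusted p of 0.064 to 0.14). In the pool the difference was -0.11 (95% interval -0.47 to 0.26, limma adjusted p = 0.61), and 0.03 without Huh7-S replicate 1. HADHB encodes the beta subunit of the same protein, and its gene starts 306 bases away from HADHA on chromosome 2, running in the opposite direction. HADHB rose in the clone by 0.72 (1.65-fold, SE 0.16, limma adjusted p = 0.0072) and had a difference of 0.33 in the pool (SE 0.16, limma adjusted p = 0.12).

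ACAA2, the thiolase that ends each mitochondrial round (chromosome 18, 49782164 to 49813533), read 12.42, 12.54 and 12.57 in Huh7-S, 12.18, 12.18 and 12.01 in Huh7-R, and 12.41, 12.62 and 12.64 in Huh7-R-A7. The pool lay below every array of the other groups, which overlapped. It fell by 0.38 in the pool (SE 0.09, limma adjusted p = 0.0078), and the clone had a difference of 0.05 (95% interval -0.15 to 0.25, limma adjusted p = 0.69). Of the 7 members with a promoter window, ACAA2 and FABP1 held a repeat, shown above. The part of the repeat in their levels was not tested.

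EHHADH, the bifunctional enzyme of the peroxisomal cycle (chromosome 3, 185190624 to 185254049), read 8.39, 8.2 and 8.13 in Huh7-S, 7.57, 7.49 and 7.46 in Huh7-R, and 7.47, 7.63 and 7.54 in Huh7-R-A7. All resistant arrays were lower than all parental ones, with log2 differences of -0.73 in the pool (1.66-fold, SE 0.08, limma adjusted p = 0.00023) and -0.7 in the clone (1.62-fold, SE 0.08, limma adjusted p = 0.00029). Both calls held in every alternative fit and with any array left out, though neither difference reached 1 on the log2 scale. Of 23 other listed peroxisomal genes, 15 were measured, of which 2 rose and 4 fell in the clone, and 1 rose and 3 fell in the pool. The shares of all genes that fell were 24.6% in the clone and 26.2% in the pool, and those that rose 18.0% and 19.0%. Without Huh7-S replicate 1, 3 rose and 3 fell in each line. HSD17B4, the bifunctional enzyme of branched-chain oxidation, fell, with log2 differences of -0.95 in the clone and -0.6 in the pool (SE 0.15 each, limma adjusted p = 0.0016 and 0.014), and the peroxisomal thiolase ACAA1 fell, with log2 differences of -0.56 and -0.77 (SE 0.1 each, limma adjusted p = 0.003 and 0.0006). PHYH, which starts the breakdown of phytanic acid, fell by 1.05 in the pool (SE 0.13, limma adjusted p = 0.0004) and had a difference of -0.39 in the clone (limma adjusted p = 0.04). The clone's PHYH call was lost with each of the 3 other array scalings, under the replicate block, and without any one of the clone arrays, Huh7-S replicate 1 or 2 or Huh7-R replicate 3, and its value was -0.26 without Huh7-S replicate 1. PECR, a reductase of unsaturated acyl-CoA, fell by 1.31 in the clone (SE 0.35, limma adjusted p = 0.018, lost without Huh7-R-A7 replicate 1) and had a difference of -0.94 in the pool (limma adjusted p = 0.06). PEX7, an import receptor, had log2 differences of 0.82 and 0.86 (SE 0.12 each, limma adjusted p = 0.0011 and 0.00088), with group means of 5.16 in Huh7-S, 6.02 in Huh7-R and 5.98 in Huh7-R-A7, near or below the noise limit. Both PEX7 calls were lost once values under 6 were set to 6.

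Around these members, 15 of 18 other listed genes of mitochondrial beta oxidation were measured. In the clone 8 fell and HADHB alone rose, with a list median of -0.39, and in the pool 8 fell, with a median of -0.47. Of all genes, 24.6% fell and 18.0% rose in the clone, and 26.2% fell and 19.0% rose in the pool. The counts were 8 lower and 1 higher in the clone, and 7 lower and 1 higher in the pool, without Huh7-S replicate 1. That array was the highest parental one for all of these 15 genes but ETFDH and HSD17B10. ETFB, a subunit of the flavoprotein that takes electrons from the dehydrogenases, read 8.75, 8.19 and 7.89 in Huh7-S, 6.49, 6.77 and 6.77 in Huh7-R, and 5.95, 6.36 and 5.97 in Huh7-R-A7. It fell, with log2 differences of -2.18 in the clone (4.54-fold, SE 0.22, limma adjusted p = 0.00015) and -1.6 in the pool (3.03-fold, SE 0.22, limma adjusted p = 0.00074). ACAD9, a dehydrogenase that also serves assembly of respiratory complex I, fell, with log2 differences of -0.82 in the clone and -1.03 in the pool (SE 0.06 each, limma adjusted p = 3.3e-05 and 1.2e-05). ACADVL, the very long-chain dehydrogenase at the start of the cycle, fell, with log2 differences of -0.62 and -0.58 (SE 0.14 each, limma adjusted p = 0.0089 and 0.011). ACAD11 fell by 0.81 in both (SE 0.2, limma adjusted p = 0.014 in the clone and 0.013 in the pool), and ACADSB, which acts on short branched chains, had differences of -1.35 and -1.34 (SE 0.39 each, limma adjusted p = 0.026 in both). The ACADSB calls were lost without Huh7-R-A7 replicate 1 in the clone and without any one of the Huh7-R arrays in the pool.

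**Figure D3:**
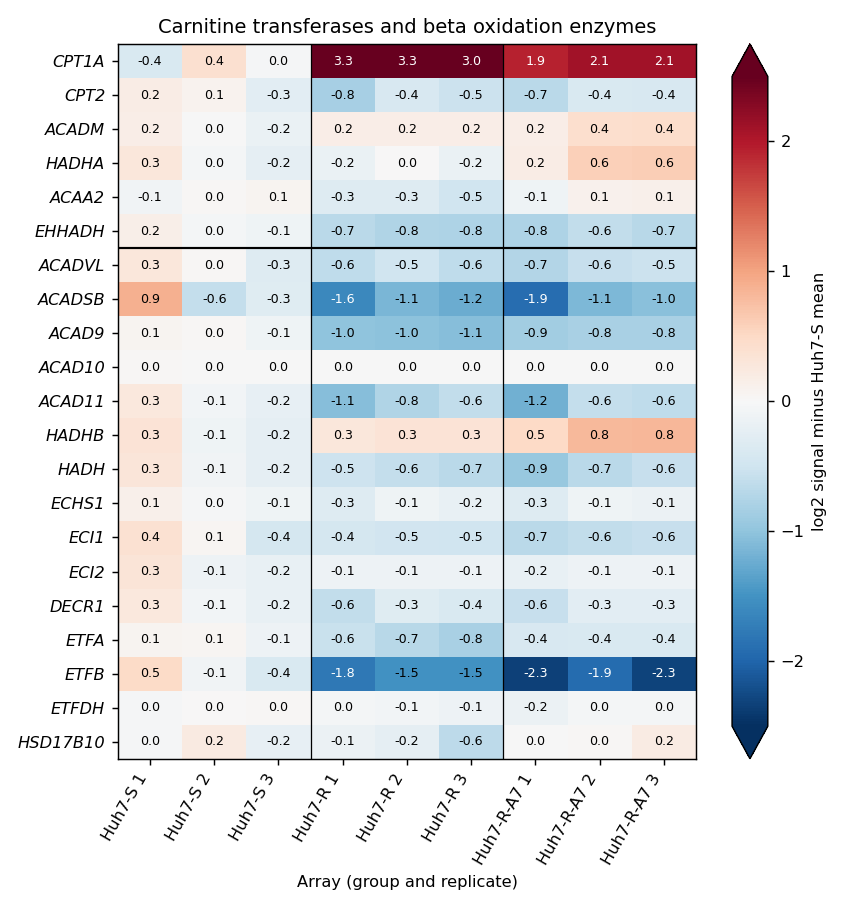
Log2 signal minus the Huh7-S mean for each array (columns, group and replicate), for the 6 members that transfer or oxidise acyl groups (above the line) and the 15 other measured beta oxidation genes (below it); colours end at 2.5 in either direction and the number in each cell is the value. CPT1A is the row that is high on all 6 resistant arrays by more than 1, while ETFB, ACAD9 and ACADSB are lower on them.

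Upstream of carnitine transfer, 10 of 22 listed genes of fatty acid uptake and activation were measured, with 4 higher and 3 lower in the clone, and 4 higher and 4 lower in the pool. SLC27A2, a fatty acid transporter and very long-chain acyl-CoA synthetase of liver, rose from a mean of 5.66 in Huh7-S to 7.75 in the clone (log2 difference 2.09, at least 3.27-fold, SE 0.2, limma adjusted p = 0.00012) and to 7.08 in the pool (1.42, at least 2.06-fold, SE 0.2, limma adjusted p = 0.00086). ACSL5, a long-chain acyl-CoA synthetase of mitochondria and endoplasmic reticulum, rose by 1.67 in the clone (at least 2.8-fold, SE 0.28, limma adjusted p = 0.002) and by 1.29 in the pool (at least 2.15-fold, SE 0.28, limma adjusted p = 0.0069). ACOT9, a mitochondrial acyl-CoA thioesterase, rose by 0.99 in both (SE 0.09, limma adjusted p = 0.0001 in the clone and 0.00011 in the pool). SLC27A4, another transporter, fell, with log2 differences of -0.72 and -1.04 (SE 0.13 each, limma adjusted p = 0.0035 and 0.00057). ACSM3, a medium-chain synthetase, had differences of -1.07 and -1.19 (limma adjusted p = 0.0023 and 0.0013) with both resistant means below 6, which leaves it at least 1.37-fold lower. Both ACSM3 calls were lost once values under 6 were set to 6.

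At the storage end, PLIN2, the perilipin that coats lipid droplets in hepatocytes (chromosome 9, 19108388 to 19127492), fell in both lines. It read 10.05, 9.88 and 9.85 in Huh7-S, 8.89, 9 and 9.02 in Huh7-R, and 8.62, 9.28 and 9.28 in Huh7-R-A7. Every resistant array was below every parental array, and clone replicate 1 differed from the mean of the other clone arrays by -0.66. The log2 difference was -0.96 in the pool (1.94-fold, SE 0.17, limma adjusted p = 0.0027) and -0.87 in the clone (1.83-fold, SE 0.17, limma adjusted p = 0.0045). Of 24 other listed lipid droplet genes, 15 were measured, of which 5 rose and 1 fell in the clone, and 5 rose in the pool. The shares of all genes that rose were 18.0% in the clone and 19.0% in the pool. PLIN3, a perilipin found in many tissues, rose by 1.06 in the clone (2.09-fold, SE 0.16, limma adjusted p = 0.0014) and 1.32 in the pool (2.5-fold, SE 0.16, limma adjusted p = 0.00047). HILPDA, a hypoxia-induced droplet protein that inhibits lipolysis, rose by 2.17 in the pool (4.5-fold, SE 0.27, limma adjusted p = 0.0005) and had a difference of 0.6 in the clone (limma adjusted p = 0.11). PNPLA2, the main triglyceride lipase, rose by 1.1 in the pool (2.14-fold, SE 0.24, limma adjusted p = 0.0069) and had a difference of 0.42 in the clone (limma adjusted p = 0.19). RAB18 rose by 0.9 and 0.5 (SE 0.08 each, limma adjusted p = 9.8e-05 and 0.0018), the lysosomal lipase LIPA rose by 0.57 and 0.41 (SE 0.09 each, limma adjusted p = 0.0012 and 0.0058), and DGAT1, which makes triglyceride, fell by 0.61 in the clone (SE 0.16, limma adjusted p = 0.02, lost without Huh7-S replicate 2).

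Ketone body genes were few in the table, with 4 of 9 listed measured, of which 2 rose in the clone and 3 in the pool. All 4 rose in each line without Huh7-S replicate 1, where 1979 of all 9784 genes rose in the clone and 2016 in the pool. OXCT1, which uses ketone bodies and is scarce in normal liver, went from a mean of 4.79 in Huh7-S to 5.62 in the pool, both below 6 (log2 difference 0.83, SE 0.13, limma adjusted p = 0.0017), and to 6.51 in the clone (1.73, at least 1.43-fold, SE 0.13, limma adjusted p = 4.6e-05). The pool's OXCT1 call was lost once values under 6 were set to 6. BDH2 rose by 0.53 in the clone and 0.57 in the pool (SE 0.12 each, limma adjusted p = 0.0084 and 0.0058).

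PPARA itself was near the noise limit, with means of 6.1 in Huh7-S, 5.95 in Huh7-R and 6.04 in Huh7-R-A7, and did not pass in either line (log2 differences of -0.06 in the clone and -0.15 in the pool, limma adjusted p = 0.45 and 0.085). Its partner RXRA had differences of -0.71 in the clone and -0.54 in the pool (SE 0.1 each, limma adjusted p = 0.00084 and 0.0032), with both resistant means below 6 and a fold of at least 1.31 in either. Of 32 listed receptors, cofactors and metabolic regulators, 20 were measured. In the clone 6 fell, and in the pool 2 rose and 7 fell. The catalytic subunits of AMPK, a kinase that relieves CPT1A of its inhibitor malonyl-CoA, were among the latter: PRKAA2 fell, with log2 differences of -2.49 in the clone (5.61-fold, SE 0.35, limma adjusted p = 0.00086) and -2.16 in the pool (4.47-fold, SE 0.35, limma adjusted p = 0.0017), and PRKAA1 fell, with log2 differences of -0.83 and -0.59 (SE 0.09 each, limma adjusted p = 0.00026 and 0.0014). The coactivator NCOA2 fell, with log2 differences of -1.23 and -0.76 (SE 0.12 each, limma adjusted p = 0.00014 and 0.0017). PPARG fell by 0.67 in the pool (SE 0.15, limma adjusted p = 0.0073) and had a difference of -0.08 in the clone (limma adjusted p = 0.7). CREB3L3 rose by 0.75 in the pool (SE 0.26, limma adjusted p = 0.044). In the clone its difference was 0.44 (limma adjusted p = 0.2). The pool's CREB3L3 call was lost without any one Huh7-S or Huh7-R array, or without Huh7-R-A7 replicate 2.

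Other listed targets of PPARA went in both directions. Of 41 listed, 22 were measured, with 6 higher and 10 lower in the clone, and 5 higher and 7 lower in the pool. APOA2, an apolipoprotein of HDL, fell, with log2 differences of -3.57 in the clone (11.9-fold, SE 0.41, limma adjusted p = 0.0003) and -3.24 in the pool (9.46-fold, SE 0.41, limma adjusted p = 0.0005). The plasma lectin MBL2 fell, with log2 differences of -2.43 (at least 3.68-fold, SE 0.23, limma adjusted p = 0.00011) and -1.84 (3.57-fold, SE 0.23, limma adjusted p = 0.00048). TXNIP, an inhibitor of thioredoxin and of glucose uptake, rose by 3.17 in the clone (at least 7.64-fold, SE 0.38, limma adjusted p = 0.00041) and 2.46 in the pool (at least 4.69-fold, SE 0.38, limma adjusted p = 0.0014). Over all 112 measured genes of these lists, 22 rose and 35 fell in the clone, and 22 rose and 31 fell in the pool, with a median of -0.07 in each. Over all genes, 18.0% rose and 24.6% fell in the clone, and 19.0% rose and 26.2% fell in the pool. Without Huh7-S replicate 1, 28 of the 112 rose and 30 fell in the clone, and 27 rose and 29 fell in the pool. In that fit, 51.8% of the 112 passed in the clone and 50% in the pool, near the 45.6% and 47.1% of all genes. HNF4A was not analysed here.

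**Figure D4:**
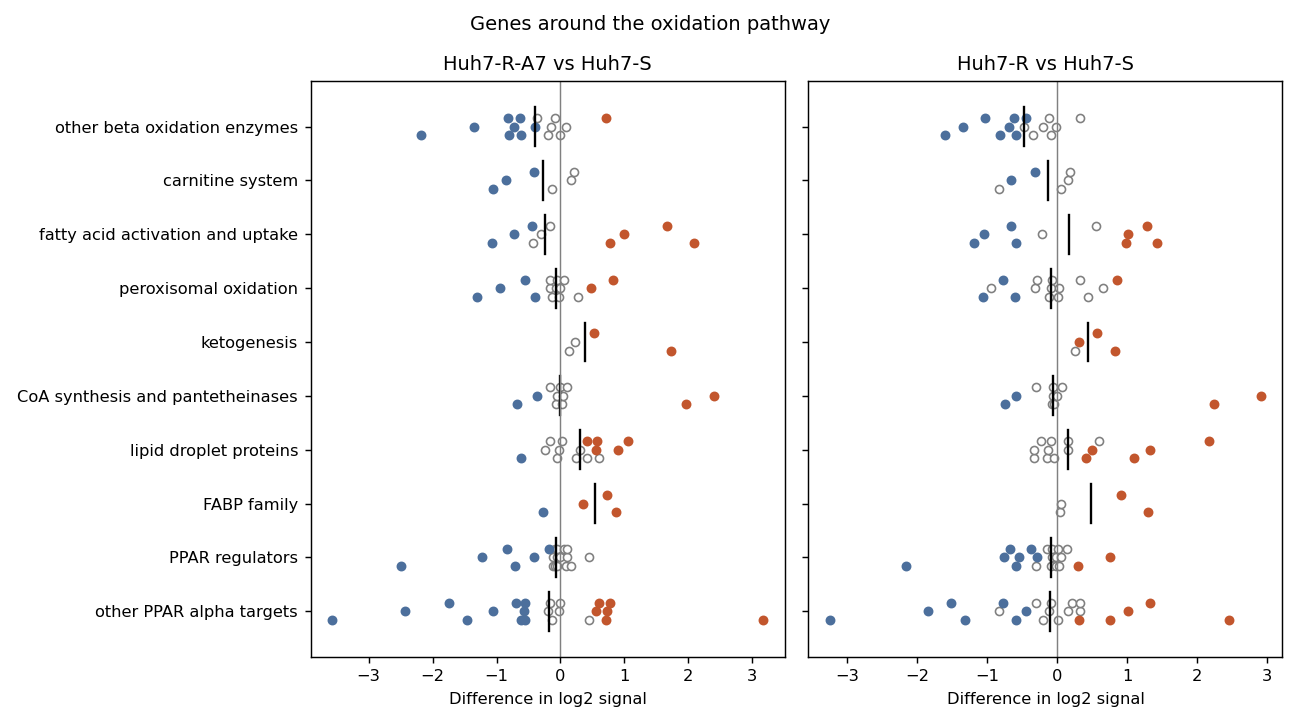
Difference in log2 signal from Huh7-S (horizontal axis) of each measured gene in the 10 lists of related genes, in the clone (left) and the pool (right), with the list median as a vertical bar; filled points passed and open points did not, and a gene in several lists appears in each. The beta oxidation enzymes lie mostly to the left, with medians of -0.39 and -0.47, while the lipid droplet genes that passed lie to the right but for 1 in the clone.

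The clone and the pool differed from each other in 4 of the 9 genes, 1 higher and 3 lower in the clone, where 8.63% of all genes passed (4.11% higher and 4.52% lower). This comparison asks where the clone differs from the pool it came from, and a gene that did not pass is not thereby shown to be shared. CPT1A was lower in the clone, with a log2 difference of -1.16 (2.23-fold, SE 0.18, limma adjusted p = 0.0086) and so was VNN1, with -1.09 (2.13-fold, SE 0.11, limma adjusted p = 0.0012), so that both genes, raised in either line, stood higher in the pool. FABP1 had a difference of -0.62 (SE 0.07, limma adjusted p = 0.0015), with both groups below the noise limit, and its difference was 0 once values under 6 were set to 6. ACAA2 was higher in the clone by 0.43 (1.35-fold, SE 0.09, limma adjusted p = 0.022). That call was lost without Huh7-R replicate 2 or 3 or Huh7-R-A7 replicate 2 or 3 (limma adjusted p of 0.062 to 0.086). Pool and clone arrays of the same replicate number deviated from their group means together (r = 0.6, 0.49 and 0.42 over all genes), and with the number as a block on these 6 arrays ACAA2 no longer passed (limma adjusted p = 0.058), while HADHA, at 0.57, did (limma adjusted p = 0.07 without the block and 0.038 with it). HADHA also passed without replicate 1 of Huh7-S or of the clone (limma adjusted p = 0.031 and 0.045). The remaining 4 members had differences of 0.04 to 0.18, and the widest of their 95% intervals ran from -0.3 to 0.48, for PLIN2. Among the listed relatives, HILPDA was lower in the clone (-1.57, SE 0.27, limma adjusted p = 0.013, lost without Huh7-R replicate 3), OXCT1 was higher by 0.9 (at least 1.43-fold, SE 0.13, limma adjusted p = 0.007) and PHYH was higher by 0.66 (SE 0.13, limma adjusted p = 0.019, lost without Huh7-R replicate 3 or clone replicate 2 or 3). Over all 112 related genes, 7 were higher and 5 lower in the clone than in the pool.

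The genes most like CPT1A, FABP1 and VNN1 over the 9 arrays were taken by Pearson correlation of log2 values among 1978 genes with a range of at least 1 and 9 different values. The arrays form 3 groups, so these values mainly restate the order of the group means. For CPT1A they were the membrane progestin receptor PAQR5 (r = 0.995), the interferon-induced membrane protein IFITM2 (0.994) and the sorting nexin SNX3 (0.991), all highest in the pool. For FABP1 they were FRY (0.998), the transcription factor SOX9 (0.994) and SGCE (0.994), all highest in Huh7-S and lowest in the clone. For VNN1 they were the magnesium transporter SLC41A2 (0.993), the protease inhibitor SLPI (0.993) and again IFITM2 (0.991), of which SLPI had group means of 5.02 in Huh7-S, 12.97 in Huh7-R and 9.4 in Huh7-R-A7.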

How the data were processed

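RNA was labelled and hybridised by the authors on 3 arrays per group. They summarised signals with RMA in Affymetrix Expression Console, took log2 values and removed probe sets below a noise limit of 6 on 85% of arrays. The deposited log2 values, 11013 probe sets by 9 arrays, were used as they stood; no other normalization was added. The number of arrays limits the precision.

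Probe sets were named from the platform annotation: 9851 had 1 symbol, 624 several and 538 none, and 77 symbols were updated through RefSeq. Probe sets of a gene were averaged (67 genes had more than 1), which gave 9784 genes. limma 3.58.1 in R 4.3.3 (lmFit, eBayes with an intensity trend) was run on all 9 arrays with group as the only term. The fit was also run on simulated arrays with independent noise. They lacked the repeated values, paired replicates and outlying array of these data, so that run cannot speak to these features. Tables and figures were made with Python 3.11.15, pandas 2.3.3 and matplotlib 3.10.9. The study calls the arrays biological replicates.

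Named were all members, PPARA, HADHB, ACADVL and SLC25A20, and for each list and each comparison with Huh7-S genes taken from the 4 largest differences that passed. The members and lists were chosen with earlier results of these data known. Same-numbered arrays paired between Huh7-R and Huh7-R-A7 (r = 0.42 to 0.6, from the data alone, since no label says what a number shares) but not with Huh7-S (r = -0.21 to 0.1). Alternatives were the array scaling, the variance model, array weights, probe set choice, filters, a floor at 6, thresholds, each array left out and the replicate number as a block.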

Additional observations from a re-analysis of the deposited data

Results flagged for a closer look

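Genes were singled out here where the clone and the pool, each set against Huh7-S, differed in that difference by limma's test of the clone against the pool, since the same parental arrays cancel. Of the 9 members these were CPT1A (-1.16, adjusted p = 0.0086), VNN1 (-1.09, adjusted p = 0.0012), FABP1 (-0.62, adjusted p = 0.0015, both groups below the noise limit) and ACAA2 (0.43, adjusted p = 0.022). Of the listed relatives they were HILPDA (-1.57, adjusted p = 0.013), OXCT1 (0.9, adjusted p = 0.007), PHYH (0.66, adjusted p = 0.019), PPARG (0.59, adjusted p = 0.048), FABP3 (-0.58, adjusted p = 0.04), RAB18 (0.39, adjusted p = 0.026) and DBI (-0.34, adjusted p = 0.045), and, outside the naming rule and named after their values were seen, PRKAG1 (0.44, adjusted p = 0.0016), SCD (-0.9, adjusted p = 0.025), UCP2 (-0.6, adjusted p = 0.029), RETSAT (0.29, adjusted p = 0.043) and AUP1 (0.59, adjusted p = 0.049). Of these relatives, OXCT1 and PRKAG1 passed with any one of the 9 arrays left out, and each of the others lost its call without at least 1 array. OXCT1, however, read the same 5.62 on all 3 Huh7-R arrays, below the noise limit. The calls of RAB18, FABP3 and RETSAT were also lost with each array centred on its median, and those of PPARG, DBI, SCD and AUP1 with only the 6 arrays compared. With the replicate number as a block, RETSAT lost its call on all 9 arrays and on the 6 compared, and DBI on all 9. The cause was not tested for any of them.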

How the results depend on the processing

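The calls of CPT1A, VNN1, EHHADH and PLIN2 against Huh7-S, of FABP1 against Huh7-S, of ACAA2 in the pool and of CPT1A and VNN1 between clone and pool kept their direction and an adjusted p below 0.05 in every alternative fit that could be made, array scalings, filters and left-out arrays included, but not all of them passed the stricter thresholds below. Of the 8 members that passed in the clone, 5 passed at an adjusted p below 0.01, 3 with an absolute log2 difference of at least 1, 2 at the limits of the study's methods and 4 of the 5 measured with 9 different values, and 5 to 7 passed when an array was left out. Of the 7 in the pool, 3 passed with a difference of at least 1, 2 at the methods' limits and 4 of 5 with 9 different values, and 6 to 7 with an array left out. Of the 4 between clone and pool the counts were 2, 0 and 2 under the same alternatives, 3 to 5 with an array left out and 7 with replicates 2 and 3 of each group (CPT1A, VNN1, FABP1, ACAA2, HADHA, ACADM and PLIN2), a setting chosen after seeing the data. The replicate block over all arrays gave 6, 7 and 4, with ACADM and HADHA lost in the clone against Huh7-S, and changed no other call of a member. With an array left out, the clone's count fell to 5 without its replicate 2 or 3 or Huh7-S replicate 2. Signs turned for differences near 0 that did not pass: HADHA in the pool (0.06 with replicates 2 and 3, and -0.22 to 0.03 with an array left out), and between clone and pool CPT2 (-0.02 to 0.2), EHHADH (-0.01 to 0.08) and PLIN2 (-0.02 to 0.31). The median of all genes moved by less than 0.1 under any scaling. The causes were not tested. With 3 arrays a group, levels under the noise limit and calls near the threshold, as in ACADM, HADHA and CPT2, are the least firm.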
